A study of Homo sapiens with 6 samples.

Results

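The genes described here are the transcription factor NRF2, encoded by NFE2L2, its inhibitor KEAP1, and 8 target genes of NRF2 outside the aldo-keto reductase family: NQO1, GCLC, GCLM, TXNRD1, SRXN1, HMOX1, OSGIN1 and ME1. They were taken by gene symbol from a table of 58735 genes, and all 10 were found and all 10 passed the filter on low counts. The samples are RNA-seq libraries of T3M4 cells, an established human line from pancreatic ductal adenocarcinoma, grown untreated in serum-containing medium to near confluence. Of the 6 libraries, 3 are labelled MUC16 knockout (KO; titles T3M4M16) and 3 are labelled as expressing MUC16 (WT; titles T3M4WT). How the knockout was made, and whether the cells are 1 clone, several clones or a pool, is not stated in the labels. They do not name separate cultures for the 3 libraries of a group either, so a p-value here sets a difference against a spread that may be only technical. In bulk RNA of this kind, fewer cells expressing a gene and less RNA per cell cannot be told apart.

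NRF2 is a basic leucine zipper factor that switches on genes against oxidants and reactive electrophiles. KEAP1 holds NRF2 in the cytoplasm and hands it to a CUL3 ubiquitin ligase for destruction; when oxidants modify cysteines of KEAP1, NRF2 escapes, enters the nucleus, pairs with a small MAF protein and binds antioxidant response elements beside its targets. BACH1, another MAF partner, binds the same elements and represses them. The targets supply glutathione and reduced thioredoxin, the main thiol reductants of the cell, and the NADPH that regenerates both. Since NRF2 is controlled mainly through the stability of its protein, its mRNA level is not a measure of its activity.

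Total gene counts were 19088927, 24909009 and 28612621 in the KO libraries and 27127901, 27647455 and 22963814 in the WT libraries. MUC16, a large membrane mucin and the targeted gene, was checked first. It had 292, 504 and 323 counts in the libraries labelled KO, against 98, 144 and 90 in those labelled WT. MUC16 transcripts were thus higher where the label says knockout (log2 fold change 1.79 ± 0.17, SE, edgeR adjusted p = 4.79e-09), which goes against the label at the RNA level. Gene-level counts cannot show whether a transcript is edited. Below, KO libraries and WT libraries are those that carry these labels, and directions are given for the first relative to the second. The epithelial markers KRT8, KRT18, KRT19, EPCAM and CDH1 fit the labelled cell type, with a summed level of 4880 to 5070 CPM (counts scaled to library size) in KO libraries and 2810 to 2860 in WT libraries. Fibroblast (43.4 to 48.2 CPM in KO and 29.8 to 33.1 in WT), endothelial (20.2 to 22.5 in KO and 13.0 to 16.1 in WT) and leukocyte markers (3.49 to 4.61 in KO and 2.83 to 2.91 in WT) were low; all were above 0 in some library. The part of these differences in the results below was not tested.

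The promoters of these genes are shown because NRF2 acts through a short DNA element. RefSeq windows (GRCh38.p14, 250 bases before to 50 bases after each annotated start) were held for 9 of the 10 genes, 12 windows in all; HMOX1 is named only. Both strands of each window were searched for the antioxidant response element core TGACNNNGC and for the AP-1 motif TGANTCA, which can overlap it. The core was found in GCLM, ME1, TXNRD1 and KEAP1, that is 4 genes, against 16.1% of 27305 genes with windows (13.3% of 35116 windows). The AP-1 motif was found in ME1 and OSGIN1, against 9.37% of genes (7.71% of windows). The windows of NFE2L2, GCLC, SRXN1 and NQO1 hold neither motif, which says only that these letters are not in these bases. The windows of the 3 lower targets with a match, of the KEAP1 start with a match and of the second TXNRD1 start read as follows, with the matches in capitals.

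GCLM (chr1:93909381-93909680, minus strand): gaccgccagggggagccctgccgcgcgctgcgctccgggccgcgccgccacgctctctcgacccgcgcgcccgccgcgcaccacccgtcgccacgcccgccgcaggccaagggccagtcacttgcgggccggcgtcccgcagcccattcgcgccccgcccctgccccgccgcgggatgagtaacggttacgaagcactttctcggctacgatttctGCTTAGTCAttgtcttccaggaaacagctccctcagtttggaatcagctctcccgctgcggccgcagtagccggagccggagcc

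ME1 (chr6:83431002-83431301, minus strand): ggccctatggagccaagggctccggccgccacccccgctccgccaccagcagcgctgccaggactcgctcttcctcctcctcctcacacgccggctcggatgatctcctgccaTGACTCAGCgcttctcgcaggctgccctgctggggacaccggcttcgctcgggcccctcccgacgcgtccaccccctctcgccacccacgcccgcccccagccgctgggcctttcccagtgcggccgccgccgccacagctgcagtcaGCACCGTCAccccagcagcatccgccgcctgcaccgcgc

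OSGIN1 (chr16:83952990-83953289, plus strand): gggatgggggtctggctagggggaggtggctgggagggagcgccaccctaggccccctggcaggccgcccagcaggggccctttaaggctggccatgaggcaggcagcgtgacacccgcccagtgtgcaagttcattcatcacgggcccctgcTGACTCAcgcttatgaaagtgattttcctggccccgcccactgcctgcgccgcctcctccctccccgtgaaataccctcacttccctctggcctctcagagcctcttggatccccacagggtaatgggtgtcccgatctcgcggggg

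KEAP1, second start (chr19:10502722-10503021, minus strand): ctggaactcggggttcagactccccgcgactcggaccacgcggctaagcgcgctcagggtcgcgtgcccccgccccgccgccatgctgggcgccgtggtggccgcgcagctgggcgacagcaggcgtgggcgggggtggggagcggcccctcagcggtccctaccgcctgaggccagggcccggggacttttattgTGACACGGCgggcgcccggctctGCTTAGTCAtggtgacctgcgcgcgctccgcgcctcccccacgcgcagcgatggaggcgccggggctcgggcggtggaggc

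TXNRD1, second start (chr12:104286782-104287081, plus strand): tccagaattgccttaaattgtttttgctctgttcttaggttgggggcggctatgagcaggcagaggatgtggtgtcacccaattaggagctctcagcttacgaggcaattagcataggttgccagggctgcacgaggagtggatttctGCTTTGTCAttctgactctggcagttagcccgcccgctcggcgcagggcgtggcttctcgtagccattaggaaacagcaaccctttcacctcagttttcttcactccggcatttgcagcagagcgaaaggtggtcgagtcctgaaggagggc

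The GCLM match, on the reverse strand from base -34 to -26 of the start, reads TGACTAAGC, and the same 9 letters stand on the reverse strand of the KEAP1 window from -31 to -23. A second KEAP1 match, TGACACGGC, runs from -54 to -46. In ME1 the match from -137 to -129 reads TGACTCAGC and contains the AP-1 motif TGACTCA, and a second match, TGACGGTGC, lies after the start, from 11 to 19 on the reverse strand. The OSGIN1 window holds only the AP-1 letters, from -97 to -91. The TXNRD1 match from -102 to -94 reads TGACAAAGC on the reverse strand, and the window of the first TXNRD1 start, not printed, holds 2 further matches. Genes with a core match thus include 2 that were lower (GCLM and ME1), 1 that was higher (TXNRD1) and 1 that did not pass the test (KEAP1). A match describes letters and is no evidence of binding in these cells.

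**Figure D1:**
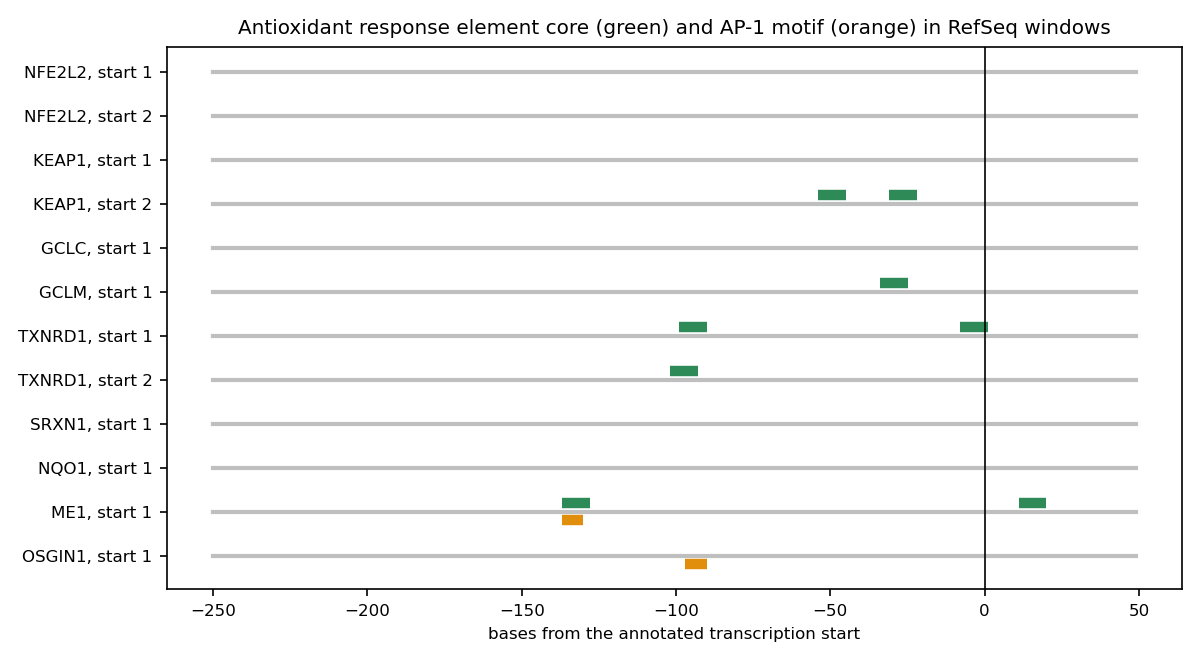
Motif matches in the 12 promoter windows of 9 genes; the horizontal axis gives bases from the annotated start (0), each grey line is a window, green bars mark the antioxidant response element core and orange bars the AP-1 motif. Matches to the core stand in the windows of KEAP1, GCLM, TXNRD1 and ME1, and the orange bar of ME1 lies inside a green one.

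Positions of genes are given in GRCh38. The mRNAs of NRF2 and KEAP1 were close to the same level in both groups. NFE2L2 (ENSG00000116044, chr2:177227595-177392697, minus strand) stood at 167, 162 and 177 CPM in the KO libraries, against 158, 156 and 153.5 CPM in the WT libraries. The groups did not overlap, but the gap between them was small beside the spread of the KO libraries. The log2 fold change of 0.11 ± 0.04 (SE) passed the test (adjusted p = 0.0303 from edgeR's quasi-likelihood test, with Benjamini-Hochberg adjustment over all genes tested). At the same threshold of 0.05 that call was lost in 6 alternatives. Among them were leaving out KO replicate 1 (adjusted p = 0.0695), KO replicate 3 (0.132), WT replicate 2 (0.0761) or WT replicate 3 (0.131), and no filter (0.0921); the authors' deposited table gives 0.0722. With cyclic loess scaling, which evens out libraries separately at each expression level, the log2 fold change of NFE2L2 was 0.22, about 1.9 times as large. AC019080.1, on the same strand, shares 17.6% of the exon bases of NFE2L2 and had 18 to 37 counts per library.

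KEAP1 (ENSG00000079999, chr19:10486120-10503741, minus strand) had 157, 154 and 157 CPM in the KO libraries, against 148, 157 and 159 CPM in the WT libraries. The ranges overlapped, and the log2 fold change was 0.01 ± 0.04 (SE, adjusted p = 0.797), with a 95% confidence interval of -0.07 to 0.10. Only cyclic loess, of the alternatives run, gave KEAP1 a call (0.12, adjusted p = 0.0263). The reads of NFE2L2 per read of KEAP1 in the same library were 1.06, 1.05 and 1.12 in KO and 1.07, 0.996 and 0.966 in WT.

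**Figure D2:**
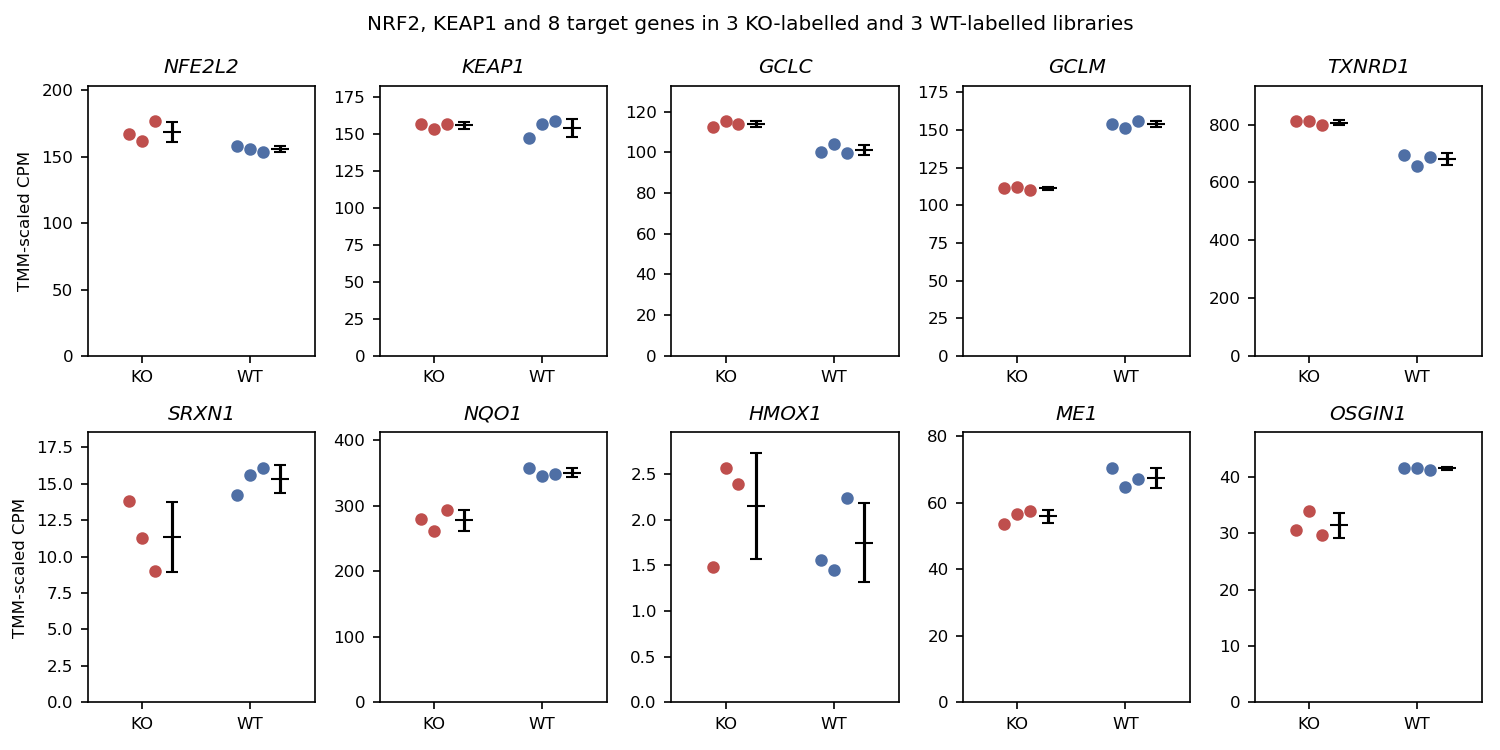
CPM scaled by edgeR's TMM factors (vertical axes, from 0) of the 10 genes in each library, KO left and WT right; points are libraries, and the bar beside them is the mean with its SD (n = 3). GCLM, SRXN1, NQO1, ME1 and OSGIN1 lie lower in KO, GCLC, TXNRD1 and NFE2L2 lie higher, and KEAP1 and HMOX1 overlap.

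The subunits of the enzyme that limits glutathione synthesis moved in opposite directions. Glutamate-cysteine ligase joins glutamate to cysteine; GCLC is its catalytic subunit, and GCLM is the modifier subunit that makes it more efficient. GCLM (ENSG00000023909, chr1:93885205-93909456, minus strand) had 112, 112 and 110.1 CPM in the KO libraries, against 154, 152 and 156 CPM in the WT libraries. All 3 KO libraries lay well below all 3 WT libraries, with little spread in either group. GCLM was 27.7% lower in KO (log2 fold change -0.47 ± 0.04, SE, adjusted p = 2.11e-09). GCLC (ENSG00000001084, chr6:53497341-53616970, minus strand) had 112, 115 and 114 CPM in the KO libraries, against 100.2, 104 and 99.5 CPM in the WT libraries. Here every KO library lay above every WT library (log2 fold change 0.17 ± 0.04, SE, adjusted p = 0.00246, higher by 12.4%). The 867 tested genes of chromosome 6 had a median of 0.08, while ME1, on the same chromosome, was lower. GCLC remained higher in each alternative run (0.15 to 0.26, highest adjusted p 0.0238), with the largest value, more than 1.5 times the first, under cyclic loess. The lincRNA AL033397.1 shares 6.12% of the exon bases of GCLC on the same strand and had fewer counts in KO (130, 180 and 209) than in WT (471, 531 and 391).

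Within a library, there were 0.994, 0.974 and 0.966 GCLM counts for each GCLC count in KO, against 1.54, 1.46 and 1.57 in WT. No library factor enters such a ratio. The mean ratio was 0.978 ± 0.0143 in KO and 1.52 ± 0.0578 in WT (SD, n = 3 each, two-sided exact permutation p = 0.1, the smallest that 3 against 3 allows, adjusted p = 0.12 over 6 ratios). These 6 ratios were chosen after the values were seen. The others included NQO1 per NFE2L2 (1.65 ± 0.0292 in KO and 2.25 ± 0.0327 in WT), GCLM per NFE2L2 (0.661 ± 0.036 in KO and 0.989 ± 0.0237 in WT) and NQO1 per TXNRD1 (0.345 ± 0.023 in KO and 0.516 ± 0.00973 in WT), each with the same exact permutation p as GCLM per GCLC (SD, n = 3 each). SRXN1 per TXNRD1 had that p too (0.0141 ± 0.00289 in KO and 0.0225 ± 0.00179 in WT), and NFE2L2 per KEAP1 had an exact permutation p of 0.3 (1.08 ± 0.0384 in KO and 1.01 ± 0.053 in WT, SD, n = 3 each).

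**Figure D3:**
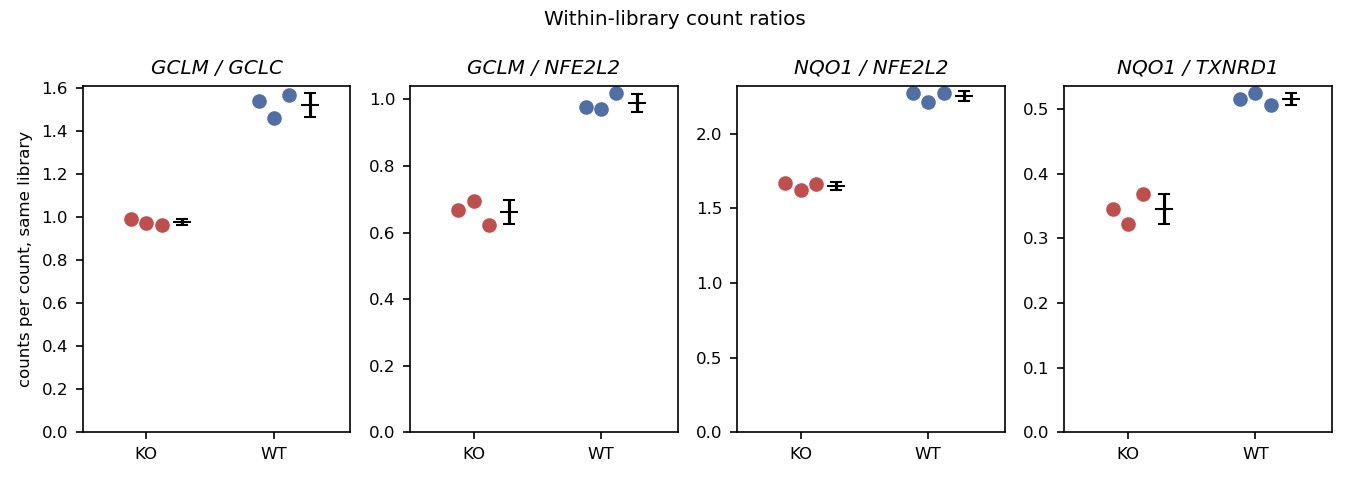
Counts of one gene per count of another in the same library (vertical axes, from 0), KO left and WT right; points are libraries, with the mean and SD (n = 3) beside them. In KO there was about 1 GCLM count for each GCLC count (mean 0.978), against 1.52 in WT, and the KO points lie below the WT points for GCLM per NFE2L2, NQO1 per NFE2L2 and NQO1 per TXNRD1 as well.

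The thioredoxin branch also went both ways. TXNRD1 encodes cytosolic thioredoxin reductase, a selenoenzyme that spends NADPH to keep thioredoxin reduced. TXNRD1 (ENSG00000198431, chr12:104215779-104350305, plus strand) had 811, 811 and 797 CPM in the KO libraries, against 695, 657 and 688 CPM in the WT libraries. The groups were far apart compared with their spread, and the log2 fold change was 0.25 ± 0.04 (SE, adjusted p = 8.69e-06, higher by 18.6%); with cyclic loess it was 0.39. SRXN1 encodes sulfiredoxin, which repairs over-oxidised peroxiredoxins. SRXN1 (ENSG00000271303, chr20:646615-653370, minus strand) had 13.8, 11.2 and 8.98 CPM in the KO libraries, against 14.2, 15.6 and 16.1 CPM in the WT libraries. The KO libraries spread widely, and the highest of them nearly reached the lowest WT library. SRXN1 was 26.7% lower in KO (log2 fold change -0.45 ± 0.12, SE, adjusted p = 0.00246). Without KO replicate 3, the lowest, the change was -0.30 (adjusted p = 0.0295). The protein-coding locus AL121758.1 shares 85.0% of the exon bases of SRXN1 on the same strand and had 0 to 4 counts, and the rule for assigning reads in shared exons is not stated in the labels.

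NQO1 and ME1 were lower. NQO1 encodes a quinone reductase that uses NAD(P)H to take quinones past their radical form, and its mRNA is a common readout of NRF2. NQO1 (ENSG00000181019, chr16:69706996-69726951, minus strand) had 279.8, 262 and 293.5 CPM in the KO libraries, against 358, 345 and 348 CPM in the WT libraries. No KO library reached a WT library, and NQO1 was 20.6% lower (log2 fold change -0.33 ± 0.04, SE, adjusted p = 8.69e-07; -0.21 with cyclic loess). An antisense gene, AC092115.2, covers 17.7% of the exon bases of NQO1 and had 0 counts in every library. ME1, the cytosolic malic enzyme, makes NADPH from malate. ME1 (ENSG00000065833, chr6:83210389-83431071, minus strand) had 53.7, 56.6 and 57.5 CPM in the KO libraries, against 70.5, 64.7 and 67.0 CPM in the WT libraries. The groups did not overlap, and ME1 was 16.9% lower (log2 fold change -0.27 ± 0.05, SE, adjusted p = 0.000174).

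HMOX1, the inducible heme oxygenase and a target strongly repressed by BACH1, was barely expressed. HMOX1 (ENSG00000100292, chr22:35380361-35394214, plus strand) had 29, 66 and 70 counts in the KO libraries, which is 1.48, 2.57 and 2.39 CPM, against 41, 39 and 50 counts or 1.56, 1.45 and 2.24 CPM in the WT libraries. The groups overlapped, and the log2 fold change of 0.33 ± 0.25 (SE, adjusted p = 0.285) had a 95% confidence interval of -0.19 to 0.85. The value was 0.51 without KO replicate 1 and 0.53 without WT replicate 3, 0.19 without KO replicate 2, 0.21 without WT replicate 2 and 0.06 with cyclic loess, and it passed in none of the 15 alternatives. The interval holds 0 and rises of the size seen for GCLC and TXNRD1, and its lower bound lies above the values of the 5 lower targets.

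OSGIN1, a stress-induced gene whose protein restrains growth, was lower in KO. OSGIN1 (ENSG00000140961, chr16:83948282-83966332, plus strand) had 30.5, 33.9 and 29.7 CPM in the KO libraries, against 41.6, 41.6 and 41.2 CPM in the WT libraries. The WT libraries were nearly identical and all stood above the KO libraries (log2 fold change -0.40 ± 0.06, SE, adjusted p = 1.32e-05, lower by 24.3%). AC009119.2 shares 13.9% of the exon bases of OSGIN1 on the same strand and had 1 to 7 counts.

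**Figure D4:**
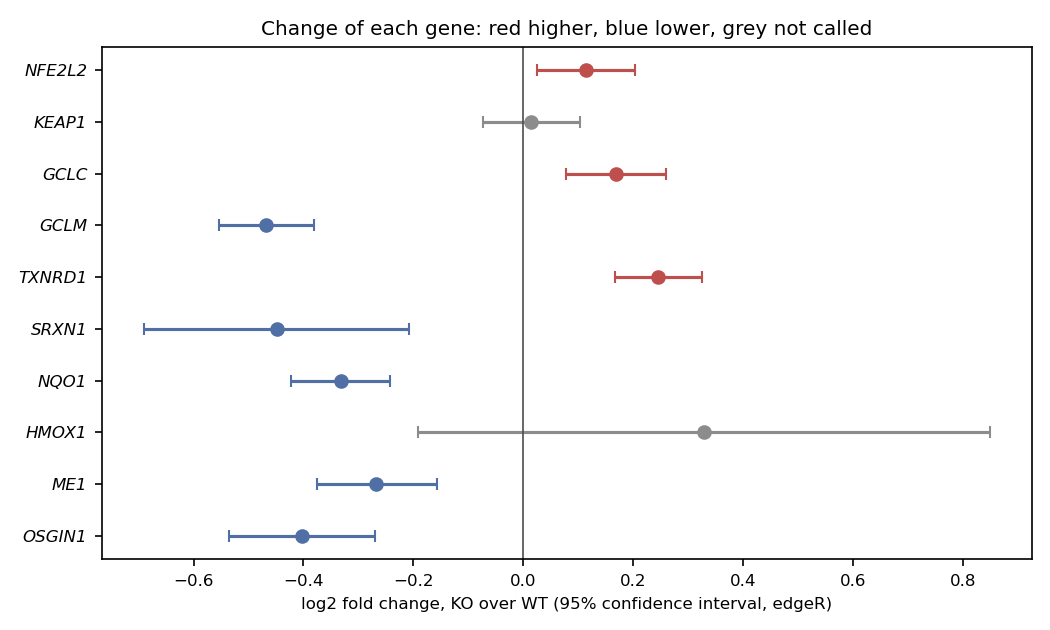
Log2 fold change of each gene, KO over WT (horizontal axis), with its 95% confidence interval from edgeR; red marks genes called higher, blue genes called lower and grey genes that did not pass. The 5 lower genes lie between -0.47 and -0.27, and the 3 higher between 0.11 and 0.25.

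Counted together, 8 of the 10 genes passed the test, 3 higher and 5 lower in KO. In the same fit 52.6% of all 16655 tested genes passed, 26.7% higher and 25.9% lower. Among genes averaging at least 10 CPM, a level that 9 of the 10 reach, 63.4% passed, 25.4% higher and 38.0% lower. Of these 9 genes 8 passed, 5 of them lower, a share above that of well-expressed genes in general. So few genes give that difference little weight, and it was not tested. With 3 higher beside 5 lower, there is no shift in 1 direction. The groups did not overlap for 8 of the 10, against 59.0% of all tested genes (29.0% with KO below and 30.0% with KO above). The median log2 fold change was -0.13 over the 10 genes and -0.30 over the 8 targets, against 0.00 over all tested genes and -0.06 over those of at least 10 CPM. The largest change that passed, that of GCLM (-0.47), was under 2-fold, while 8.87% of all tested genes passed with at least 2-fold. The 5 lower genes were called lower in all 16 alternatives.

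In deposited FPKM, which scale each gene by its length, TXNRD1 and NQO1 had the highest values, and their order differed between the groups. The length is that of all annotated exons of a gene together (6708 bases for TXNRD1, 3254 for NQO1 and 8646 for GCLC). It can exceed the length of the mRNAs made in these cells, so the ranks of genes below depend on it. TXNRD1 averaged 119 ± 1.25 in KO and 101 ± 3.13 in WT, and NQO1 84.6 ± 5.01 in KO and 107 ± 2.31 in WT (SD, n = 3 each). TXNRD1 stood above NQO1 in each KO library (120.0, 119 and 117 against 85.3, 79.2 and 89.2 FPKM) and below it in each WT library (103, 97.5 and 102 against 110.0, 106 and 106 FPKM). KEAP1 followed at 41.0 ± 0.664 FPKM in KO and 40.9 ± 1.5 in WT. Next came NFE2L2 (27.9 ± 1.28 in KO and 26.0 ± 0.406 in WT) and GCLM (20.3 ± 0.192 in KO and 28.3 ± 0.403 in WT), whose order also differed between the groups. ME1 (16.4 ± 0.543 in KO and 19.9 ± 0.902 in WT), GCLC (13.0 ± 0.136 in KO and 11.7 ± 0.283 in WT) and OSGIN1 (8.97 ± 0.614 in KO and 11.9 ± 0.072 in WT) lay below these, with GCLC and OSGIN1 within their spread of each other in WT only. SRXN1 (4.16 ± 0.895 FPKM in KO and 5.65 ± 0.347 in WT) and HMOX1 (0.882 ± 0.237 in KO and 0.724 ± 0.177 in WT) had the lowest values (SD, n = 3 each).

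In the wider pathway, where values in parentheses are log2 fold changes of KO over WT, the repressor BACH1 had the largest change among the 17 regulators and partners tested. BACH1 had 79.5, 81.4 and 76.9 CPM in the KO libraries, against 44.8, 50.2 and 46.4 CPM in the WT libraries. Every KO library stood far above every WT library (log2 fold change 0.75 ± 0.05, SE, adjusted p = 5.79e-11), and the value ran from 0.71 to 0.82 over the alternatives. BACH1 lies on chromosome 21, whose 174 tested genes had a median of 0.095. Of these 17 genes, BACH1 included, 3 were higher and 5 lower (median -0.03), and over the alternatives 2 to 5 were higher and 2 to 5 lower. The lower count was 2 without KO replicate 3 and 3 without KO replicate 1, WT replicate 2 or WT replicate 3. That count also fell with upper-quartile factors, cyclic loess, a filter of at least 50 counts in 3 libraries and a threshold of 0.01. NFE2L3, a relative of NRF2, rose (0.48), and the acetyltransferases CREBBP (-0.41) and EP300 (-0.32), which serve many transcription factors, fell. The relative NFE2L1 (0.08), the KEAP1-binding protein DPP3 (0.05) and the small MAF protein MAFG (-0.08) did not pass, though NFE2L1 passed in 4 of 15 alternatives (0.21 with cyclic loess), DPP3 in 2 (0.15 with cyclic loess) and MAFG without WT replicate 1 (-0.12). EP300 was at -0.21 without KO replicate 3. SQSTM1, which binds KEAP1 and targets it for autophagy, fell slightly (-0.10, adjusted p = 0.0432), and so did the nuclear receptor RXRA (-0.11, adjusted p = 0.0258), but neither call was stable. The SQSTM1 call was lost in 9 of 15 alternatives and the RXRA call in 7 of 15, each including leave-one-out fits and cyclic loess, where the sign was positive (0.03 for SQSTM1 and 0.02 for RXRA). They were picked after their values were seen, and SQSTM1 lies on chromosome 5, whose 781 tested genes had a median of -0.20.

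Of 9 genes of cystine uptake and glutathione turnover, 1 was higher and 4 lower (median -0.03), near the 38.0% lower among genes of at least 10 CPM. The cystine importer SLC7A11 had 146, 142.5 and 138 CPM in the KO libraries, against 189, 193.5 and 188 CPM in the WT libraries. The groups stood apart (log2 fold change -0.42 ± 0.04, SE, adjusted p = 1.09e-08), as did those of its partner SLC3A2 (-0.24, but -0.09 with cyclic loess), picked after its value was seen. Glutathione reductase, GSR, had 171, 169 and 173 CPM in KO, against 210.5, 208 and 210.2 CPM in WT (-0.29 ± 0.04, SE, adjusted p = 1.56e-06; -0.18 with cyclic loess). CHAC2, which degrades glutathione, fell (-0.58), and GGT1, which starts the breakdown of glutathione outside the cell, rose (0.66). GGT1 was low, averaging 6.17 CPM in KO and 3.86 CPM in WT. Glutathione synthetase, GSS, did not pass (0.04) other than with cyclic loess (0.13).

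Glutathione peroxidases and transferases had 6 higher and 4 lower of 15 tested (20 listed, median 0.10). Over the alternatives 4 to 7 were higher and 2 to 5 lower. Of all tested genes 26.7% were higher and 25.9% lower, shares that also apply to the thioredoxin, NADPH and iron lists below. The epithelial peroxidase GPX2 (-0.52) and the secreted peroxidase GPX3 (-0.73) fell, and GSTZ1 (0.82) and GSTO2 (0.48) rose. GSTZ1 was low, averaging 5.25 CPM in KO and 2.98 CPM in WT. The transferase GSTP1 did not pass (-0.07) other than without WT replicate 1 (-0.10). GPX3, like SQSTM1, lies on chromosome 5. GPX4, which reduces lipid peroxides, was higher (0.22, and 0.34 with cyclic loess), a gene picked after its value was seen. Thioredoxin, glutaredoxin and peroxiredoxin genes had 5 higher and 6 lower of 15 (median -0.08, mean 0.00). Over the alternatives 4 or 5 were higher and 5 to 7 lower. TXNIP, an inhibitor of thioredoxin, rose most (0.78), followed by TXNRD3 (0.56), and the mitochondrial reductase TXNRD2 (-0.41) and GLRX3 (-0.36) fell, while PRDX3 did not pass (-0.09) other than without KO replicate 3 (-0.12). Thioredoxin itself, TXN, was lower (-0.27, but -0.14 with cyclic loess), as was PRDX1 (-0.22), which did not pass with cyclic loess (-0.08, adjusted p = 0.0967); both were picked after their values were seen.

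Enzymes that make NADPH divided evenly, with 4 higher and 4 lower of 9 (median -0.09 and mean 0.14, of opposite sign). Over the alternatives 3 or 4 were higher and 2 to 4 lower, the 2 with cyclic loess. The isocitrate dehydrogenases IDH2 (0.77) and IDH1 (0.63) and the transhydrogenase NNT (0.74), which is on chromosome 5, rose, and the mitochondrial malic enzyme ME2 fell (-0.47). Transaldolase, TALDO1, did not pass (-0.09). Transketolase, TKT, of the pentose phosphate pathway was lower (-0.27, but -0.13 with cyclic loess) and was picked after its value was seen. Heme and iron genes had 4 higher and 3 lower of 8 (median 0.22). Over the alternatives 3 or 4 were higher and 2 or 3 lower. The ferritin heavy chain FTH1, which stores iron, had 2880, 2620 and 2915 CPM in KO, against 1557, 1751 and 1600 CPM in WT. It rose (0.78 ± 0.05, SE, edgeR adjusted p = 2.09e-12), with the iron exporter SLC40A1 (0.85 ± 0.23, SE) and the biliverdin reductase BLVRA (0.50). The constitutive heme oxygenase HMOX2 fell (-0.38). SLC40A1 was scarce, with 28 to 71 counts per library. FTH1 has many processed pseudogenes with which reads can be shared.

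The genes listed here as further targets of NRF2 outside the aldo-keto reductases were mostly lower. The list does not hold all such targets. Of the 8 targets described above, 2 were higher (TXNRD1 and GCLC) and 5 lower. The lists of glutathione, thioredoxin, NADPH and iron genes may hold targets of NRF2 as well, and had genes called in both directions. Of 15 tested (17 listed), 11 were lower and 0 higher in KO by edgeR's adjusted p (median -0.33), with 0 higher at an unadjusted p under 0.05 too; of all tested genes 25.9% were lower, and 38.0% of those of at least 10 CPM. For each of the 11 the groups did not overlap, with KO below, as for 29.0% of all tested genes. Over the alternatives 10 to 13 were lower and 0 or 1 higher, the 1 being the epoxide hydrolase EPHX1 with cyclic loess. DESeq2 and limma-voom also called 0 higher, and EPHX1 was at 0.04 in edgeR. The carboxylesterase CES1 (-1.31), the glucuronosyltransferase UGT1A6 (-1.11) and the exporters ABCC2 (-0.81) and ABCC3 (-0.44) fell most. CES1 averaged 2.47 CPM in KO and 5.99 CPM in WT and UGT1A6 1.33 CPM in KO and 2.83 CPM in WT. ABCC2 was also low, averaging 2.93 CPM in KO and 5.03 CPM in WT. UGT1A6 shares exons with the other UGT1A genes, so its count is uncertain. Of the aldo-keto reductases, 5 of 7 tested were lower and 0 higher by the same test, led by AKR1B10 at 10.5 ± 1.09 CPM in KO and 57.1 ± 1.21 CPM in WT (SD, n = 3 each), with AKR1C1 (-1.21), AKR1C2 (-0.88) and AKR1C3 (-0.53), whose near-identical sequences can share reads. Against superoxide and peroxide, catalase, CAT, rose (0.25), and SOD1 (-0.10) did not pass, other than with no filter (-0.11) and without KO replicate 3 (-0.15); 1 of 4 genes was higher. Across all 9 lists, 24 genes were higher and 42 lower of 99 tested, 66 in all. That share is close to the 63.4% of genes of at least 10 CPM that passed and above the 52.6% of all tested genes. The 99 are not limited to genes of at least 10 CPM. These lists were drawn up with earlier results of these data known.

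**Figure D5:**
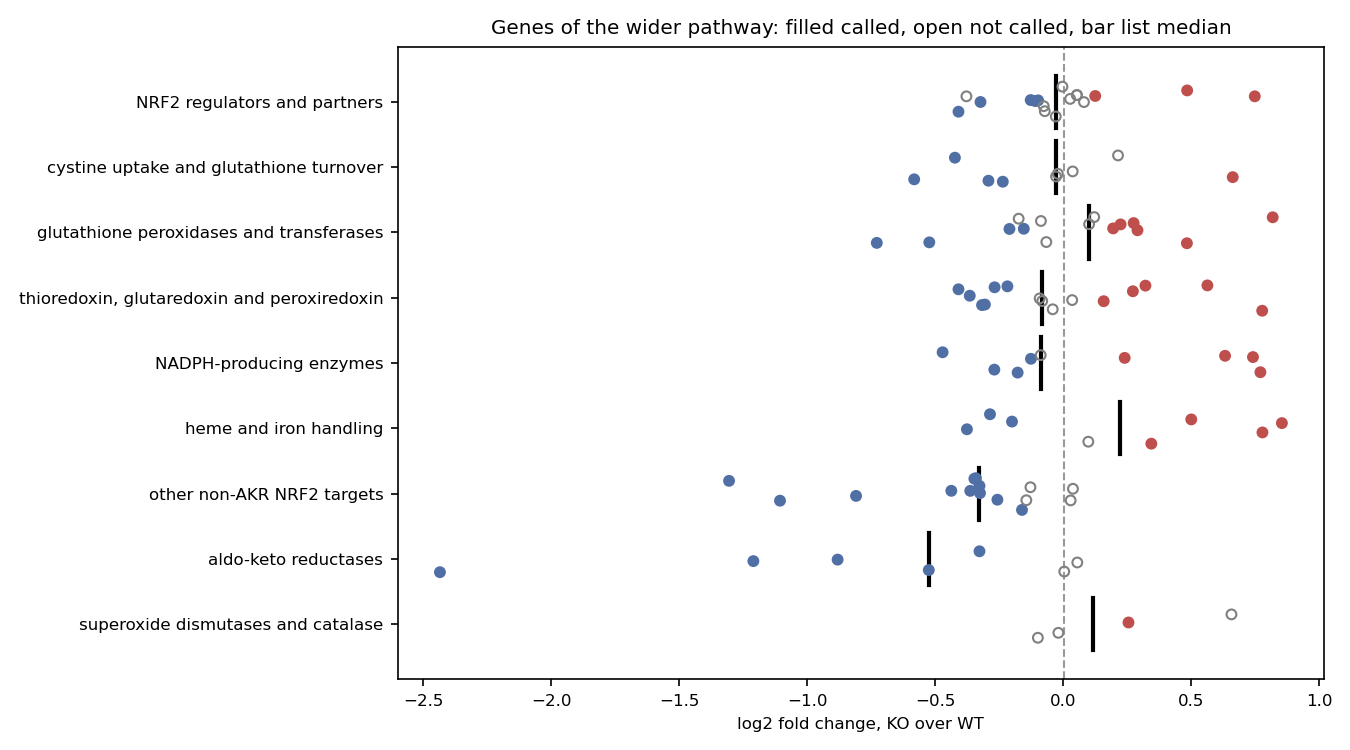
Log2 fold change, KO over WT (horizontal axis), of each tested gene in the 9 lists of the wider pathway; filled points were called (red higher, blue lower), open points were not, black bars are list medians and the dashed line is the median of all tested genes (0.00). The further NRF2 targets (median -0.33) and the aldo-keto reductases (median -0.53) have called points on the lower side only, and the other lists have them on both sides or, for superoxide dismutases and catalase, a single one on the higher side.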

How the data were processed

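RNA was made into libraries with an NEBNext Ultra kit, per the labels' protocols, and fastp, HISAT2, STAR, DESeq, GRCh38 and hg38 are named in the submitters' processing notes, with neither roles nor versions; how reads were counted, strand included, was not stated. The authors deposited raw read counts per gene, which were used for all tests. The authors also deposited FPKM values, which were made from the same counts divided by gene length and by 1 factor per library, as a test on the deposited values showed. The deposited table also gives log2 fold changes and adjusted p-values, quoted only as those of the authors.

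Counts were fitted with edgeR 4.0.16 in R 4.3.3 (TMM, filterByExpr with a minimum count of 10, quasi-likelihood test of KO against WT, two-sided, group as the only term), which tested 16655 of 58735 genes. P-values were Benjamini-Hochberg adjusted over these genes, threshold 0.05. The step was checked on simulated counts. Library depths, given in the report, limit precision mainly for HMOX1 among the 10 genes, and for list genes with similarly few counts. No pair of libraries within a group was a duplicate (chi-square per degree of freedom 2.43 to 6.27). Symbols, positions and exon overlaps are from GENCODE 29 on GRCh38, which gives the same ID, start and end for 58724 of the 58735 genes.

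The scaling was replaced by upper-quartile factors, by DESeq2 size factors and by cyclic loess with limma-trend; the filter by none and by at least 50 counts in 3 libraries; and the test by limma-voom (limma 3.58.1) and DESeq2 1.42.0. Further alternatives left out 1 library at a time, used a threshold of 0.01 or took replicate numbers as a block; protein-coding genes alone was added after the data were seen. Within each pathway list the text names up to 4 genes past the threshold with the largest changes and at least 1 CPM, and genes of at least 100 CPM that did not pass; exceptions are marked. The members and lists were chosen with earlier results of these data known.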

Additional observations from a re-analysis of the deposited data

How the results depend on the processing

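Of the 10 genes, 7 to 9 passed over the alternatives, with 5 lower in each and 2 to 4 higher. The median log2 fold change of the 10 genes, -0.13, was -0.0706 with upper-quartile factors and -0.0705 with cyclic loess, with its sign kept. Across all tested genes 6935 to 8766 passed, and 56 to 66 genes of the pathway lists. With the replicate block 7 of the 10 genes and 8442 of all genes passed, and NFE2L2 lost its call (adjusted p = 0.0527). Same-numbered KO and WT libraries did not deviate together (correlations of 0.0116, 0.0205 and -0.024 over genes), so the numbers were not taken to pair them. Beyond RXRA (0.0215) and SQSTM1 (0.0253) with cyclic loess, no called value changed sign among the genes of the report and its lists; the cause was not tested. Among the smaller counts of list genes, 2 genes of cystine uptake and glutathione turnover were higher without KO replicate 2. The same number were higher with upper-quartile factors, with cyclic loess and with at least 50 counts in 3 libraries. Without KO replicate 1, 2 superoxide dismutases or catalase were higher, and 1 gene of that list was lower without KO replicate 3 and with no filter. With cyclic loess 2 glutathione peroxidases or transferases were lower. Of the 10 genes, HMOX1 had the fewest counts (29 to 70) and the largest SE (0.25), followed by SRXN1 (263 to 420 counts, SE 0.12). The SRXN1 SE also holds the wide spread of its KO libraries (13.8, 11.2 and 8.98 CPM), and the part of depth in it was not tested. Some list genes had as few counts as HMOX1, such as UGT1A6 (29 to 79, SE 0.23).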
